A study of Mus musculus with 2 samples.

Results

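Chromatin accessibility at homeobox patterning genes was compared between primary murine cardiac fibroblasts that received scrambled siRNA (SCR, labelled NC) and those that received siRNA against Piezo2 (siPiezo2). Members were all genes in the deposited peak table whose symbol begins with 1 of 19 prefixes (Hoxa, Hoxb, Hoxc, Hoxd, Meis, Pbx, Irx, that of Six2, Prrx, Lhx, Tshz, Zfhx, Cux, Nkx, Pitx, Msx, Dlx, Satb and Tgif) directly followed by a number. This gave 46 genes of the 16934 with a peak, holding 144 of the 43864 peaks that carry a gene symbol, in a table of 63316 peaks. Both groups came from mouse heart and were given TGF-β for 24 h at 5 ng/ml, per the study. ATAC-seq, in which the Tn5 transposase cuts open DNA and tags it for sequencing, was done on 1 library per condition. No difference below therefore has a replicate check, and none was tested. The labels give no strain, age or sex, and no untreated library was analysed here. The design text of the series names a knockout of Tet3 by Cre virus in place of the siRNA, and the study's methods describe minced tissue and another kit than the labels do, so the grouping relies on the sample labels.

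Homeobox genes encode transcription factors that bind DNA through the homeodomain, and they lay out the body axes, limbs and organs in the embryo. The MEIS, PBX and TGIF proteins belong to the TALE class, whose MEIS and PBX members bind DNA together with HOX proteins. Adult fibroblasts keep part of the homeobox code of the place they came from, and PRRX1 and MEIS1 are among the factors known to act in mesenchymal cells and in the heart.

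Values are the authors' normalized read densities, on the scale of reads per kb in a window of 2000 bp around each peak, summed over the peaks of a gene. Differences are log2((siPiezo2 + 1)/(SCR + 1)) of these densities, called the log2 ratio below. The whole reads behind the densities were recovered. Over the members' windows SCR had 9514 reads and siPiezo2 5809, a ratio of 0.611, against 0.597 over the windows of all peaks (4615335 and 2754046 reads). A member peak had a median of 54 reads (range 30 to 213) in SCR and of 35.5 (15 to 134) in siPiezo2. Each 95% interval is an exact Clopper-Pearson interval of the share of reads in siPiezo2, moved to the normalized scale. It covers counting error only and compares these libraries, not the conditions. At the 21398 peaks called in both libraries the spread was 2.07 times the counting variance. Sums count some reads more than once, since 16 member windows in 10 genes overlap the one before. Of 12 fibroblast marker genes, 10 had a peak (all but Lum and Thy1), with summed densities of 1419 in SCR and 1270 in siPiezo2. This cannot check the fibroblast label, since 7 of 8 smooth muscle and pericyte markers and 6 of 8 endothelial markers also had a peak. In bulk cells, fewer cells of a type and less signal per cell cannot be told apart.

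Summed over all their peaks, the homeobox genes as a group lay where the other genes lay. Their median log2 ratio was -0.11 (quartiles -0.27 and 0.087), against -0.093 (-0.29 and 0.10) over all genes with a peak, and 29 of the 46 (63.0%) were lower in the siPiezo2 library, against 62.6% of all genes. Of the members, 3 (6.52%) were below 0.66 of SCR, where the share over all genes was 6.21%. These were Lhx4, Hoxa3 and Lhx9, with 1 or 2 peaks each. All of these peaks had been called in SCR only, and over the peaks called in both libraries no member of the 21 with such a peak was below 0.66 (2.71% of all 10549 genes with one). Prrx1 and Tshz2, with 1 such peak each, were then above 1.5 (9.52%, against 2.41%), a count too small to set against the rest. No member was above 1.5 of SCR, where the share over all genes was 1.54%. The counting interval lay below 0 for 7 members (15.2%, against 15.8% of all genes), among them Lhx4, Hoxa3, Lhx9, Tshz3, Zfhx3 and Cux1. It lay above 0 for 2 members (4.35%, against 4.68%), Tgif1 and Meis1. Some of these intervals count shared reads more than once. With separate windows those of Tshz3, Cux1 and Tgif1 hold 0, and that of Prrx1 lies above 0. With the interval widened to the spread of the peaks called in both libraries, 3 members lay below 0, among them Lhx4 and Lhx9, and 1 above 0 (Meis1). Over all genes, 7.29% and 1.65% did. Apart from the counts over peaks called in both libraries, each of these shares is near its background. The counts over all peaks alone therefore set the homeobox genes apart from the rest in neither direction.

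**Figure D1:**
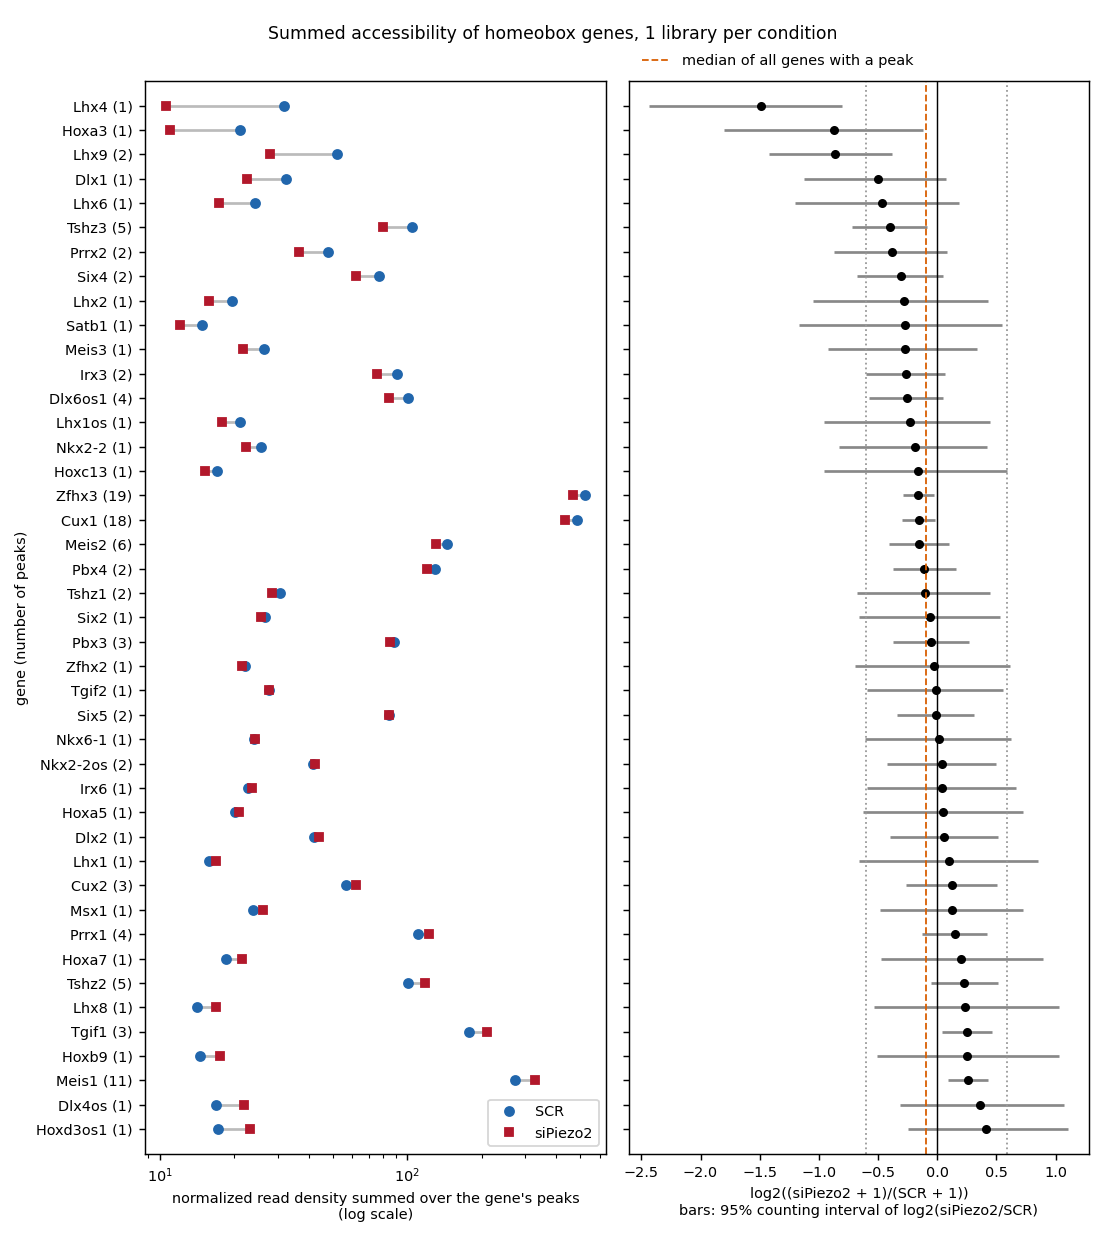
The left panel plots the summed normalized read density (log scale) of 43 of the 46 genes in SCR (circles) and siPiezo2 (squares), with the number of peaks in brackets. The right panel plots the log2 ratio with its 95% counting interval, the median of all genes at -0.093 as a dashed line and the thresholds of 0.66 and 1.5 as dotted lines. Lhx4, Hoxa3 and Lhx9 lie below the lower threshold, while Zfhx3, with 19 peaks, and Meis1, with 11, have narrow intervals on opposite sides of 0.

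The direction of small differences depended on how the libraries were scaled. Median-of-ratios scaling moved the median of all genes up by 0.14, from -0.093 to 0.043, and that of the members to 0.031. With reads at the same total, the all-gene median was 0.030 and the member median 0.043. Relative to the all-gene median, 22 of the 46 members were higher with the authors' normalization and 22 with the median of ratios, and 24 were higher with reads at the same total. Median-of-ratios scaling turned the sign of 7 members (Pbx3, Pbx4, Six2, Six5, Tgif2, Tshz1 and Zfhx2), all of which had log2 ratios between -0.11 and -0.010. Reads at the same total turned 10, which were these without Pbx4 and, in addition, Cux1 (to 0.00090), Meis2 (0.022), Satb1 (0.021) and Hoxc13 (0.099). Median-of-ratios scaling left Zfhx3 at -0.021 and Cux1 at -0.017, while Meis1 was then at 0.40, Tgif1 at 0.39, Lhx9 at -0.73 and Lhx4 at -1.36. Meis1 was above the all-gene median under each of the scalings.

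Single peaks spread more widely than genes. Of the 144 member peaks, 13 (9.03%) were below 0.66 of SCR, against 12.2% of all peaks with a symbol, and 7 (4.86%) were above 1.5, against 2.82%. The median was -0.17 for member peaks and -0.12 for all peaks with a symbol. Among peaks past a threshold, 65.0% were on the lower side for the members and 81.2% for all peaks with a symbol. This split moved with the scaling. With the median of ratios 6 member peaks were lower and 12 higher (33.3% lower, against 55.5% over all), with densities at the same total 10 and 9 (52.6%, against 66.1%), and with reads at the same total 7 and 16 (30.4%, against 48.1%). The lower share was smaller among the members with the authors' normalization and in each of these scalings, but not within the promoter class, where 3 member peaks were lower and none higher (76.3% lower over all promoter peaks). Its difference from the other peaks was not tested, and the 7 high peaks are few. All 7 were in introns, which held 824 of the 1237 such peaks over all genes (66.6%), and among them were 3 in Meis1, 2 in Prrx1 and 1 in Tshz2. Over the peaks called in both libraries, 1 member peak was lower and 5 were higher (2.33% and 11.6%, against 4.50% and 3.80% of all), so that the direction of the counts turned.

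**Figure D2:**
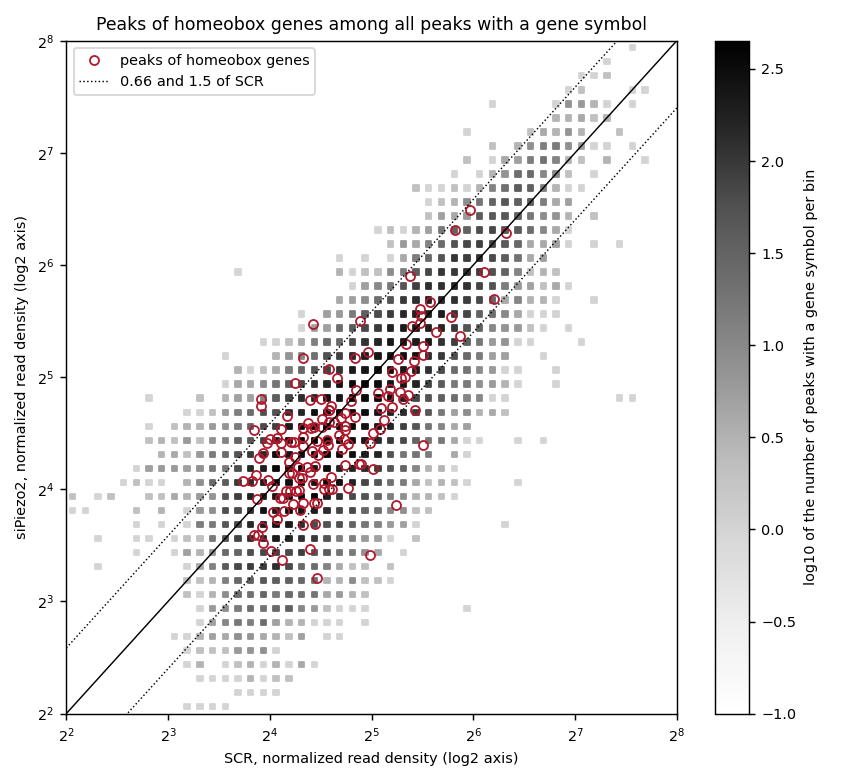
Normalized read density of single peaks in SCR (horizontal) and siPiezo2 (vertical), both on log2 axes. Open circles are the 144 peaks of homeobox genes, the grey squares count all peaks with a gene symbol per bin, and the dotted lines are 0.66 and 1.5 of SCR. The circles follow the grey cloud, with 14 under the lower line and 7 over the upper one. The lines are drawn without the pseudocount of 1, with which 13 peaks are below 0.66.

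Peaks of the homeobox genes were mostly in introns and mostly called in SCR alone. Introns held 98 peaks (68.1%, against 60.6% of all peaks with a symbol), and the promoter class, within a few kb of a start, held 24 (16.7%, against 23.96%). A further 8 were in 5′ UTRs, 6 in exons, 5 in 3′ UTRs and 3 downstream. The intron peaks had a median of -0.17, as did intron peaks over all genes. Promoter peaks had a median of -0.18 where that of all promoter peaks was -0.042, and 16 of the 24 (66.7%) were below 0, against 55.3%. The smaller classes also differed from their backgrounds, with medians of 0.026 against -0.043 in 5′ UTRs, -0.30 against -0.090 in exons, -0.31 against -0.17 in 3′ UTRs and 0.14 against -0.14 downstream. At the 20 member peaks within 1 kb of a start the median was also -0.18 and the range -0.64 to 0.52, against a median of -0.030 over all 9251 such peaks. MACS2 had called 43 member peaks (29.9%) in both libraries, 95 (66.0%) in SCR only and 6 (4.17%) in siPiezo2 only, against 36.8%, 61.2% and 1.99% of all peaks with a symbol. The median was 0.054, -0.23 and 0.31 in these groups, against 0.0096, -0.22 and 0.51. Calling in a library goes with more signal there, so these medians follow in part from how the groups are made.

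Promoter sequence is shown for the 4 genes with a promoter peak that reached into the 250 bases before a matched RefSeq start, among those named for a low or high log2 ratio of the gene, since these peaks differed in both directions. Of the 20 promoter peaks within 1 kb, 7 were matched, through the transcript the table names and a start within 100 bp of it. Msx1 and Six2 also had such a peak, near level at 0.12 and -0.058, but were named only for their role and are not shown. Sequences are from RefSeq on GRCm38.p6 and run 5′ to 3′ on the strand of the gene, up to the base before the start. Tgif1 lies at chr17:70851735-70851984 (minus strand), Meis1 at chr11:19018970-19019219 (minus), Tshz3 at chr7:36697868-36698117 (plus) and Six4 at chr12:73113426-73113675 (minus). Capitals mark matches, on either strand, to GGAATG (TEAD), TGAGTCA (AP-1), TGACAG (MEIS and TGIF), TAATTA (homeodomain), CAGAC (SMAD) and the CArG box of SRF, of which CAGAC and TGACAG can overlap.
Tgif1: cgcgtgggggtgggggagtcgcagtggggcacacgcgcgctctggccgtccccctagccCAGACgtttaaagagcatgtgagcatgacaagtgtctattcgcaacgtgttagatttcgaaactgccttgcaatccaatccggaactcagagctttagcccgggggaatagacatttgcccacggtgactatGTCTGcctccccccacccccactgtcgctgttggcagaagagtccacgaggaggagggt
Meis1: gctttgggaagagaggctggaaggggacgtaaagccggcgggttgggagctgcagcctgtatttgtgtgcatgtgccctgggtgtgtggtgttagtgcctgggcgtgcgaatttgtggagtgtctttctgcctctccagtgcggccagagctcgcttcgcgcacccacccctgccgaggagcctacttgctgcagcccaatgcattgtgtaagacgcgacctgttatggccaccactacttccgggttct
Tshz3: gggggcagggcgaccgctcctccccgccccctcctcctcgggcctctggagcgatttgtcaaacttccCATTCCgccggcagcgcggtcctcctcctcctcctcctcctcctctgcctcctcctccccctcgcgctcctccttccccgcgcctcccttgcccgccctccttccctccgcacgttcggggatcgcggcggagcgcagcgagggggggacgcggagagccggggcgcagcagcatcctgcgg
Six4: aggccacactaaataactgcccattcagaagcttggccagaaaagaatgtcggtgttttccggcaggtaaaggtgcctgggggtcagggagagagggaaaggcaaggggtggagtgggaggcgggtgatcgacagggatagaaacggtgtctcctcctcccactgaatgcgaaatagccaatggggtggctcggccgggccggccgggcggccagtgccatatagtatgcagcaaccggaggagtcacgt

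The Tgif1 promoter, whose peak was higher in siPiezo2 (log2 ratio 0.52), held 2 matches to the SMAD letters, which begin at -191 and -59 from the start. The Tshz3 promoter (-0.49) held 1 match to the TEAD letters, which begins at -182. No match was found in the windows of Meis1 (-0.50) or Six4 (-0.27). These are short motifs. CAGAC was in 42.2% of 32536 RefSeq promoters of this length and in 44.2% of the 52 promoters of 38 member genes, and GGAATG was in 12.6% and 7.69%. TGACAG was in 15.8% of all promoters and 11.5% of the members' promoters, TAATTA in 4.84% and 7.69%, TGAGTCA in 4.45% and 3.85%, and the CArG box in 1.48% and 1.92%. A match describes letters in the window and does not show that a factor binds there.

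Meis1, a TALE factor that binds with PBX and HOX proteins and restrains cell division in heart muscle after birth, had the highest log2 ratio of the members at or above the median density. Its 11 peaks (gene ENSMUSG00000020160, chr11:18829817-18968985 in GRCm39) summed to 273 in SCR and 327 in siPiezo2, from 660 and 521 reads. The log2 ratio was 0.26 (95% counting interval 0.091 to 0.43), and 0.25 (0.072 to 0.43) with the 10 peaks whose windows do not overlap. The peak at the start and those in the introns differed in direction. All 7 intron peaks were above 0, and 3 were past 1.5. Those were chr11:18877447-18877657 in intron 8, with 19.0 in SCR and 30.9 in siPiezo2 (log2 ratio 0.67, 0.090 to 1.31), chr11:18842536-18842817 in intron 9, with 14.4 and 23.03 (0.64, -0.034 to 1.40), and chr11:18870653-18871011 in intron 8, with 29.5 and 45.2 (0.60, 0.12 to 1.11). The promoter peak at the start (chr11:18968806-18969189) went the other way, with 40.9 in SCR and 28.7 in siPiezo2, from 101 and 45 reads (-0.50, -1.05 to 0.0095). A second promoter peak further upstream was at 28.6 and 36.0 (0.32), and a peak downstream of the gene (chr11:18827606-18827922) at 24.3 and 26.7 (0.14). The 3′ UTR peak (chr11:18833502-18833775) was the other one below 0, at 17.6 and 14.0 (-0.31, -1.14 to 0.44). Summed over both promoter peaks, Meis1 was at -0.10, so that the direction of the gene turned when only promoters were used. MACS2 called 9 of the 11 peaks in both libraries, and 8 of these were above 0. For 9 of the 11, all intron peaks included, the nearest start in the table belongs to another gene, so their assignment to Meis1 rests on position.

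Meis2, the close relative of Meis1, had 6 peaks that summed to 145 in SCR and 130 in siPiezo2 (-0.15, -0.41 to 0.10). Its strongest peak, in the 5′ UTR, was level, at 44.7 in both libraries. The 5 intron peaks ran from -0.61 to 0.20. Meis3 had 1 promoter peak at 26.5 and 21.8 (-0.27, -0.92 to 0.34). Meis2 and Meis3 were thus on the other side of 0 from Meis1, though Meis2 was at 0.022 with reads at the same total, and of the MEIS genes only Meis1 had an interval on one side of 0.

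Tgif1, a TALE repressor that holds back SMAD-driven transcription downstream of TGF-β, had 3 peaks near its start that summed to 177 in SCR and 211 in siPiezo2, from 463 and 316 reads. The log2 ratio was 0.25 (0.039 to 0.46). The peaks split by position. The promoter peak (chr17:71158639-71159020, GRCm39) was at 62.5 and 90.1 (0.52, 0.19 to 0.86), and the 5′ UTR peak beside it (chr17:71158058-71158309) at 56.3 and 79.3 (0.49, 0.13 to 0.85). The peak in an exon, chr17:71155936-71156182, was at 58.3 and 41.2 (-0.49, -0.95 to -0.067). It lies 2.67 kb from the outermost start of the gene and 580 bp from another start of Tgif1. The windows of the promoter and 5′ UTR peaks share reads, and with 1 of them left out the gene was at 0.072 (-0.20 to 0.34). Tgif2, the related repressor, had 1 peak at 27.8 and 27.6 (-0.011, -0.59 to 0.56).

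Pbx3 and Pbx4, TALE factors of the PBX family, differed little. Pbx3 had 3 peaks at 88.5 in SCR and 85.4 in siPiezo2 (-0.051, -0.37 to 0.26), and Pbx4 had 2 at 129 and 120 (-0.11, -0.38 to 0.16). Pbx4 also held the peak with the highest SCR density of all members, in intron 1, at 79.8 and 77.8 (-0.036). Both were below 0 with the authors' normalization and above 0 with the median of ratios.

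**Figure D3:**
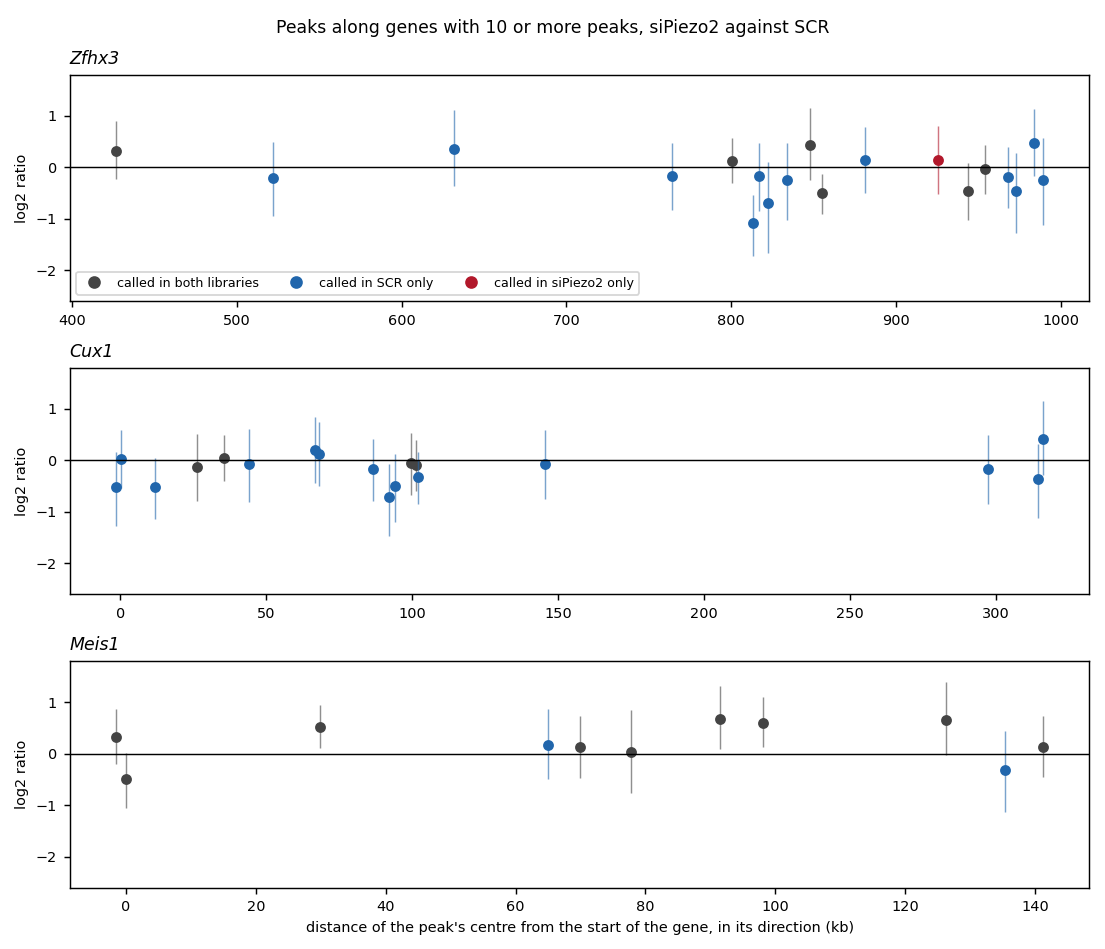
Log2 ratio of each peak (vertical, with 95% counting intervals) against the distance of its centre from the start of the gene in kb, in the direction of transcription, for 3 of the 4 genes with 10 or more peaks. Colours show which library a peak was called in. In Zfhx3 and Cux1 most points lie a little below 0 with single deep ones, whereas in Meis1 all but 2 of the 11 points lie above it.

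Zfhx3, a large protein with homeodomains and zinc fingers that is linked to heart rhythm, had 19 peaks, all in introns, that summed to 523 in SCR and 468 in siPiezo2 (-0.16, -0.29 to -0.029). Of these, 12 were below 0. The nearest start to 18 of the 19 belongs to another gene, and they were assigned by lying within Zfhx3. The lowest, chr8:109482079-109482498 in intron 7, was at 45.3 and 21.02 (-1.07, -1.72 to -0.54), and the strongest, chr8:109524397-109525049 in intron 8, was at 73.9 and 51.9 (-0.50, -0.91 to -0.12). Both intervals are below 0, and the other 17 hold 0. Cux1, a repressor with CUT repeats and a homeodomain, had 18 peaks at 485 and 435 (-0.16, -0.29 to -0.020, but 0.00090 with reads at the same total). All 7 peaks of its intron 2 were below 0, from -0.72 to -0.055, its promoter peak at the start was at 28.9 and 29.5 (0.032), and its other promoter peak at 23.2 and 16.02 (-0.51). Over both promoter peaks Cux1 was at -0.19. Without overlapping windows Cux1 was at -0.12 (-0.28 to 0.042). The sums of Zfhx3 and Cux1 lay close to the all-gene median of -0.093, and each interval includes it.

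Cux2 and Satb1 complete the CUT group. Cux2 had 3 peaks at 56.8 in SCR and 61.9 in siPiezo2 (0.12, -0.26 to 0.51). Satb1, which organises chromatin in T cells, had 1 weak intron peak at 14.8 and 12.1 (-0.27, -1.17 to 0.55), and at 0.021 with reads at the same total. The only other ZFHX gene with a peak, Zfhx2, was at 22.1 and 21.6 (-0.031). None of these intervals lies on one side of 0.

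The teashirt genes, which encode zinc finger and homeodomain proteins of trunk and smooth muscle development, differed among themselves. Tshz3 (gene ENSMUSG00000021217, chr7:36397543-36472978) had 5 peaks that summed to 105 in SCR and 79.4 in siPiezo2 (-0.40, -0.72 to -0.088), and all 5 were below 0, from -0.52 to -0.070. The interval of the sum just includes the all-gene median of -0.093. Its strongest peak, chr7:36396750-36397527 in the promoter, was at 34.9 and 24.6 (-0.49, -1.09 to 0.058). Only 3 of the windows are separate, and over those Tshz3 was at -0.29 (-0.74 to 0.13). Tshz2 had 5 peaks at 100.4 and 118 (0.23, -0.056 to 0.51), and its direction rested on 1 peak, without which the other 4 summed to 78.9 and 73.03 (-0.11). That peak, chr2:169572471-169572913 in intron 1, was at 21.4 in SCR and 44.5 in siPiezo2, from 52 and 71 reads (1.02, 0.52 to 1.60), the highest log2 ratio of any member peak. The other peaks of Tshz2 ran from -0.55 to 0.39. Tshz1 had 2 weak peaks at 30.6 and 28.4 (-0.10).

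Prrx1, a factor of mesenchymal and fibroblast identity, had 4 peaks that summed to 110 in SCR and 122 in siPiezo2 (0.15, -0.13 to 0.42). Behind this small sum, 2 peaks were higher and 2 lower. In intron 1, chr1:163100812-163101064 was at 15.1 and 28.04 (0.85, 0.23 to 1.57) and chr1:163119605-163119924 at 20.1 and 36.0 (0.81, 0.27 to 1.43). At the 3′ end, the intron 4 peak was at 38.9 and 29.3 (-0.40, -0.95 to 0.11) and the 3′ UTR peak at 35.9 and 28.5 (-0.32, -0.88 to 0.20). The strongest peak of Prrx1 therefore had the opposite sign from its sum. The windows of the pair at the 3′ end overlap, and with the 3 separate windows Prrx1 was at 0.33 (0.011 to 0.66), an interval above 0. The nearest start to all 4 peaks belongs to another gene in the table, so that their assignment to Prrx1 rests on their lying within the gene.

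Prrx2, the relative of Prrx1, had 2 peaks at 47.6 in SCR and 36.4 in siPiezo2 (-0.38, -0.87 to 0.079). Its promoter peak was at 29.4 and 18.7 (-0.63, -1.32 to -0.016) and its intron peak was level at 18.2 and 17.7 (-0.041).

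The LIM homeobox genes, which specify neurons, limbs and gonads, included the member with the lowest log2 ratio, Lhx4, on few reads. Lhx4 (gene ENSMUSG00000026468) had 1 peak, chr1:155616778-155617084 in intron 1, at 31.7 in SCR and 10.6 in siPiezo2, from 74 and 17 reads (-1.49, -2.43 to -0.80). It reached the members' median density in SCR only, where that was 31.2. The next lowest member was Hoxa3, followed by Lhx9. Lhx9 had 2 peaks that summed to 51.9 and 27.97, from 121 and 45 reads (-0.87, -1.42 to -0.39). Its 3′ UTR peak, chr1:138754587-138754954, was at 22.1 and 9.25 (-1.17, -2.19 to -0.40) and its promoter peak, chr1:138776378-138776895, at 29.8 and 18.7 (-0.64, -1.34 to -0.036). All 3 of these peaks had been called in SCR only. The other LIM symbols had 1 peak each and intervals that hold 0: Lhx6 at -0.47, Lhx2 at -0.28, the antisense RNA Lhx1os at -0.23, Lhx1 at 0.096 and Lhx8 at 0.24. Summed over the 7 LIM symbols, density was 178 in SCR and 123 in siPiezo2 (-0.53), with 3 of their 8 peaks below 0.66, where the share over all peaks with a symbol was 12.2%. All 3 belong to Lhx4 and Lhx9, and the other 5 symbols summed to 94.9 and 84.8 (-0.16).

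The sine oculis genes Six2, Six4 and Six5, which act in muscle, kidney and sensory organ precursors, were all below 0 with the authors' normalization. Six4 had 2 peaks at 76.5 in SCR and 61.8 in siPiezo2 (-0.30, -0.68 to 0.052), Six2 had 1 at 26.7 and 25.6 (-0.058), and Six5 had 2 at 84.6 and 84.0 (-0.010). Six2 and Six5 were above 0 with the median of ratios. Irx3, an Iroquois factor of conduction in the ventricles, had 2 overlapping windows in its 5′ UTR that summed to 90.7 and 75.5 (-0.26, -0.60 to 0.062). Irx6 had 1 promoter peak at 22.8 and 23.5 (0.042). Every interval of these 5 genes holds 0.

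Of the HOX genes, the core of the positional code, few had a peak under their own symbol. Over the 4 prefixes, 6 symbols had 1 peak each, with SCR densities of 14.6 to 21.1 where the median of all peaks with a symbol was 26.1. In the Hoxa cluster, Hoxa3 was at 21.1 in SCR and 11.0 in siPiezo2, from 48 and 18 reads (-0.87, -1.80 to -0.12), at chr6:52162224-52162503 in its promoter class. Hoxa5 was at 20.1 and 20.9 (0.051) and Hoxa7 at 18.5 and 21.4 (0.20), both in the 5′ UTR. Hoxb9 was at 14.6 and 17.5 (0.25), Hoxc13 at 17.1 and 15.2 (-0.16, but 0.099 with reads at the same total) and the opposite-strand RNA Hoxd3os1 at 17.2 and 23.2 (0.41, -0.25 to 1.11). Their sum was 109 in both libraries (0.0089). Hoxa3 alone of these symbols had an interval on one side of 0, and its widened interval holds 0. Peaks in the clusters under other symbols, such as the antisense RNA Hoxaas3, or under none were not counted here, so that the accessibility of the clusters as a whole was not measured.

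The DLX, NKX and MSX genes, which pattern jaw, brain and early heart, had no interval on one side of 0. Dlx1 had 1 promoter peak at 32.3 in SCR and 22.6 in siPiezo2 (-0.50, -1.13 to 0.072), Dlx2 was at 42.1 and 43.9 (0.060), and the noncoding Dlx6os1 had 4 peaks at 101 and 84.1 (-0.26, -0.57 to 0.051), all of them below 0. Dlx4os was at 16.9 and 21.9 (0.36, -0.31 to 1.07). Nkx2-2 was at -0.19, its opposite-strand RNA Nkx2-2os at 0.038 and Nkx6-1 at 0.013. Msx1, a target of BMP signalling, was at 23.9 and 26.1 (0.12, -0.48 to 0.73). Nkx2-5, Irx4, Irx5, Msx2 and Zfhx4, which were on the list of 23 role genes, had no row under their symbols in the table used here.

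**Figure D4:**
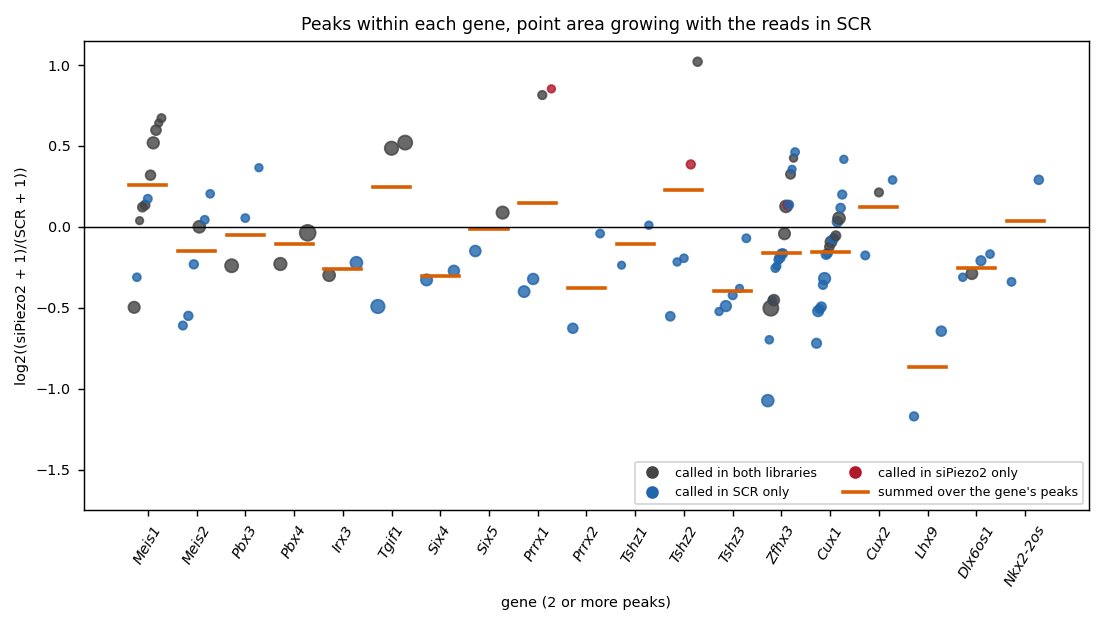
Log2 ratio of every peak of 19 genes with 2 or more peaks, with point area growing with the SCR reads, colour for the library or libraries that called it and an orange bar for the gene summed over its peaks. Opposite peaks stand within Tgif1, Prrx1 and Tshz2, while the peaks of Tshz3, Irx3 and Six4 all lie below 0.

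Homeobox genes outside the 19 prefixes were counted in the same way. Of 62 listed, 26 had a peak, with a median log2 ratio of -0.11, and 18 were below 0. Cdx2 and Lmx1a, 2 of the 26, were below 0.66 of SCR (6.21% of all genes) and none was above 1.5 (1.54% of all genes). The widened intervals of Cdx2 and Lmx1a hold 0. The interval lay below 0 for 5, which were Cdx2, Lmx1a, Zhx2, Pknox2 and Zeb1. Pknox2, a TALE relative of MEIS, had 623 in SCR and 485 in siPiezo2 (-0.36, -0.49 to -0.24), and Zeb1, a repressor of epithelial genes, was at 286 and 218 (-0.39, -0.58 to -0.20). Zhx2, a zinc finger and homeobox repressor, was at 282 and 207 (-0.45, -0.64 to -0.25). These are 5 of 26 genes, where the share over all genes was 15.8%. It lay above 0 for Zeb2 alone, at 113 and 141 (0.32, 0.061 to 0.58). The Polycomb and Trithorax genes, which keep homeobox genes off or on, had a peak in 21 of 22, a median of -0.099 and an interval below 0 in 3, and 17 of the 21 (81.0%) were below 0. The retinoic acid genes, upstream of HOX in the embryo, had a peak in 11 of 15, a median of -0.14 and an interval below 0 in 3, and 10 of the 11 (90.9%) were below 0. Over all genes the median was -0.093 and 62.6% were below 0. Counts this small, 3 of 21 and 3 of 11, cannot be set firmly against the 15.8% of all genes. In both lists none was past either threshold or had an interval above 0.

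Markers of other cells were read beside the LIM, HOX and NKX genes, since these genes are typical of other tissues. Among 10 cardiomyocyte markers 4 had a peak, with summed densities of 167 in SCR and 181 in siPiezo2, among 8 endothelial markers 6 (494 and 532), among 8 macrophage markers 4 (257 and 242, with a median of -0.25 but Spi1 at 0.45, 0.084 to 0.83) and among 8 smooth muscle and pericyte markers 7 (589 and 506). In the last list, the pericyte gene Rgs5 was at 127 and 56.0 (-1.16, -1.53 to -0.83), past the lower threshold. Without Rgs5 the other 6 of that list summed to 462 and 450 (-0.040), and the median of the list was -0.021. The endothelial gene Cdh5 was at 47.7 and 78.0 (0.70, 0.34 to 1.09), past the upper threshold, and the median of its list was 0.057, with Kdr and Tek below 0. The cardiomyocyte genes Myh6, Myh7, Tnni3 and Myl2 and the macrophage genes Adgre1, Cd68 and Lyz2 had no row under their symbols. Fibroblast markers had a median of -0.27, against -0.093 over all genes, and 9 of 10 were below 0, against 62.6%, and the interval lay below 0 for 3 (30.0%, against 15.8%), which were Col1a1, Col1a2 and Pdgfrb. The part of these cells in the values of Meis1 and Lhx4 was not tested.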

How the data were processed

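The deposited table has 1 row for each peak and, as signal, a read density per library. The densities match a centring by regression of the log2 ratio of the libraries on mean log2 density. That step was inferred from the values, since the methods do not describe it. The authors' own log2 ratio, mean log2 density and p-value columns compare the libraries and were not used. The methods name BWA, Picard, MACS2, featureCounts and, for differential peaks, DESeq2, and the submitters' notes BWA 0.7.12 and mm10. The coordinates are of GRCm39: only 651 of 30592 transcripts have the same start as in GRCm38. Peak positions are given as the table has them, promoter sequence on GRCm38.p6, and peak sequence was not analysed here.

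Whole reads in each 2000-bp window were worked back from the densities by finding the intercept (-0.25) and slope (0.17) that make them whole, within 0.1 read, in 100% of the peaks, after taking off the 1 added before the logarithm. That last step rests on the usual form of this normalization. The depth of the whole libraries was not analysed here. Densities were summed per gene, and log2((siPiezo2 + 1)/(SCR + 1)) was computed. A pseudocount of 1 makes differences at weak peaks look smaller. The thresholds of 0.66 and 1.5 of SCR follow the methods for RNA-seq.

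The members, lists and tests were chosen with earlier results of these data known. Named genes were members past a threshold whose density in either library reached the members' median for that library, the 10 lowest and 10 highest among members whose mean density over both libraries reached the median of such means, the 10 with most peaks and with highest density, 23 genes fixed by role (17 with a peak) and all HOX symbols with a peak, 33 in all. The other 13 and the genes of the lists are named to account for the counts, and peaks beyond the strongest of a family or the extremes were chosen after their values were seen. Some members enter the counts, medians and family sums but are not reported here by name or drawn where genes are labelled. The recovery of reads and the intervals of single peaks were run on simulated data with counting error only. That simulation held no extra variance, overlapping windows or sums over a gene, so it cannot check the intervals under these. Scripts ran in Python 3.11.15 with scipy 1.17.1, pandas 2.3.3, numpy 2.4.6 and, for plots, matplotlib 3.10.9.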

Additional observations from a re-analysis of the deposited data

Results flagged for a closer look

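Distal intergenic peaks carry no gene symbol and were left out of the sums, yet 34 of them have their nearest transcription start at 1 of 17 homeobox genes. Their median log2 ratio was -0.19 (range -0.73 to 0.53), against -0.18 over all 19430 distal intergenic peaks, and 22 of the 34 (64.7%) were below 0, against 66.3%. By nearest gene, the 6 such peaks of Tshz3 summed to 169 in SCR and 151 in siPiezo2 (-0.17, 95% counting interval -0.40 to 0.066). One of them, chr7:36476417-36476773 in GRCm39, was at 33.6 and 21.4 (-0.63, -1.27 to -0.057). The single peak near Meis1 was at 17.1 and 15.8 (-0.11, -0.89 to 0.64). The single peak near Six4, at 30.6 and 18.1 (-0.73, -1.43 to -0.12), also had an interval below 0. These were the 2 peaks below 0.66 of SCR (5.88%, against 16.6% of all distal intergenic peaks), and none was above 1.5 (against 4.02%). The nearest start does not show which gene a peak acts on.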

How the results depend on the processing

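With 1 library per condition there is no replicate to leave out. The median log2 ratio of the members was -0.11 and lay between -0.19 (promoter peaks) and 0.043 (reads at the same total, above 0). Over promoter peaks the all-gene median was -0.041, and 71.4% of the 21 members with one were below 0, against 54.9% of all genes. Over peaks at or above the median density the members were at -0.15 and all genes at -0.061, with 71.4% and 58.0% below 0. These differences were not tested. Member peaks below 0.66 and above 1.5 of SCR, 13 and 7, became 6 and 12 with the median of ratios, 6 and 4 at or above the median density, 4 and 1 at 2-fold, and 7 and 16 with reads at the same total. Genes, 3 and 0, became 2 and 1 at or above the median density, 1 and 0 at 2-fold, 4 and 1 by the strongest peak, and 3 and 2 with reads at the same total. Over peaks called in both libraries, an alternative chosen after seeing the data like the counts from reads and the separate windows, 1 peak and 0 genes were lower and 5 peaks and 2 genes higher, among fewer peaks. Of 346 values of single genes under an alternative, 326 lay inside the counting interval and 20 outside, and 0 past a threshold reversed. Part of this was fixed in advance, since the 25 members with 1 peak keep their value by the strongest peak and with separate windows. Lhx4, Hoxa3 and Lhx9, the members past a threshold, have no peak called in both libraries and so no value under that alternative. Under the promoter alternative Meis1 was at -0.10, and with the strongest peak Prrx1 was at -0.40. Where not given, the cause was not tested.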
